A study of Mus musculus with 4 samples.

Results

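The 41 genes described here are 25 that copy DNA (replication genes) and 16 that divide the copied genome or rise toward division (mitosis genes), of 55536 annotated Ensembl genes counted. They were taken from a list of symbols with no threshold on their level, and each symbol matched 1 gene. RNA with a polyA tail was sequenced from bone-marrow-derived macrophages of C57BL/6J mice, which are primary cells grown from marrow into macrophages in culture. The 4 libraries form 1 group of 4 biological replicates, numbered as in the labels, which name separate cell samples under 1 shared donor entry and give neither sex nor age. According to the sample descriptions, all 4 received 100 ng/mL Lipid A for 12 h, a washout of 12 h, and 100 ng/mL Lipid A again for 60 min. Lipid A is the membrane anchor of bacterial lipopolysaccharide and a ligand of the receptor TLR4. The source names instead give lipoprotein A and mention no washout, so the agent and the washout are uncertain. No untreated or once-treated cells are analysed here, so a level is a level and not a response.

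DNA replication begins when the origin recognition complex, CDC6 and CDT1 load the MCM2-7 ring, the core of the helicase, onto DNA, and CDC45 and the GINS proteins later turn it on. Polymerases then copy the strands while held by PCNA, a sliding clamp that replication factor C opens and closes, and ribonucleotide reductase with thymidylate synthase and thymidine kinase supplies the nucleotides. Mitosis genes act later: cyclins A and B with CDK1 drive entry, the Aurora and Polo kinases and the kinetochore proteins arrange the chromosomes, and CDC20 and UBE2C mark cyclins for destruction. Replication genes are classical targets of E2F transcription factors, and many late genes are controlled by the DREAM and MuvB complexes through CCAAT boxes and a cell cycle homology region. Macrophages divide in response to the growth factor CSF1, and TLR4 ligands are known to arrest that division.

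Library size ranged between 23167140 and 41453162 expected counts on genes. Replicate 1 stood apart in its share of TPM (a transcript level scaled for transcript length and library size) on ribosomal RNA genes, 7.14% against 1.29% to 2.73% in the others. Mitochondrial genes took 1.94%, 2.80%, 4.77% and 4.00% of TPM in replicates 1, 2, 3 and 4. All 12 macrophage markers reached 1 TPM in each library, with Lyz2 at 10400 to 12700 TPM. None of 8 granulocyte precursor, 9 erythroid or 7 fibroblast markers did, and the exceptions in the other lists were 1 of 9 lymphoid markers (Cd79b) and 1 of 8 progenitor markers (Cd48). In bulk RNA, fewer cells that express a gene and less RNA of it per cell cannot be told apart.

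All 25 replication genes reached 1 TPM in each library, whereas 10 of the 16 mitosis genes did, together 35 of the 41 beside 10407 of all genes. The median over genes of the mean TPM was 10.2 for replication genes and 2.13 for mitosis genes, beside 17.2 for all genes at 1 TPM in each library. Of the 25 replication genes 7 lay above that last median, and of the 16 mitosis genes 1, Cdk1. These levels take in all transcripts of a gene. On protein-coding transcripts alone Cdk1 averaged 13.7 TPM, below Mki67 at 16.3 TPM. Among the 7, Rfc2, Rrm1 and Rfc3 averaged 11.9, 13.1 and 16.7 TPM on such transcripts. The median of 17.2 TPM takes in all transcripts, and no median on coding transcripts is given beside these values. The mitosis genes below 1 TPM in some library were Ccna2, Ccnb2, Bub1, Plk1, Cdc20 and Ube2c. Of the mitosis genes 7 had a mean below that of every replication gene, and 24 of the 25 replication genes had a mean above the mitosis median.

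**Figure D1:**
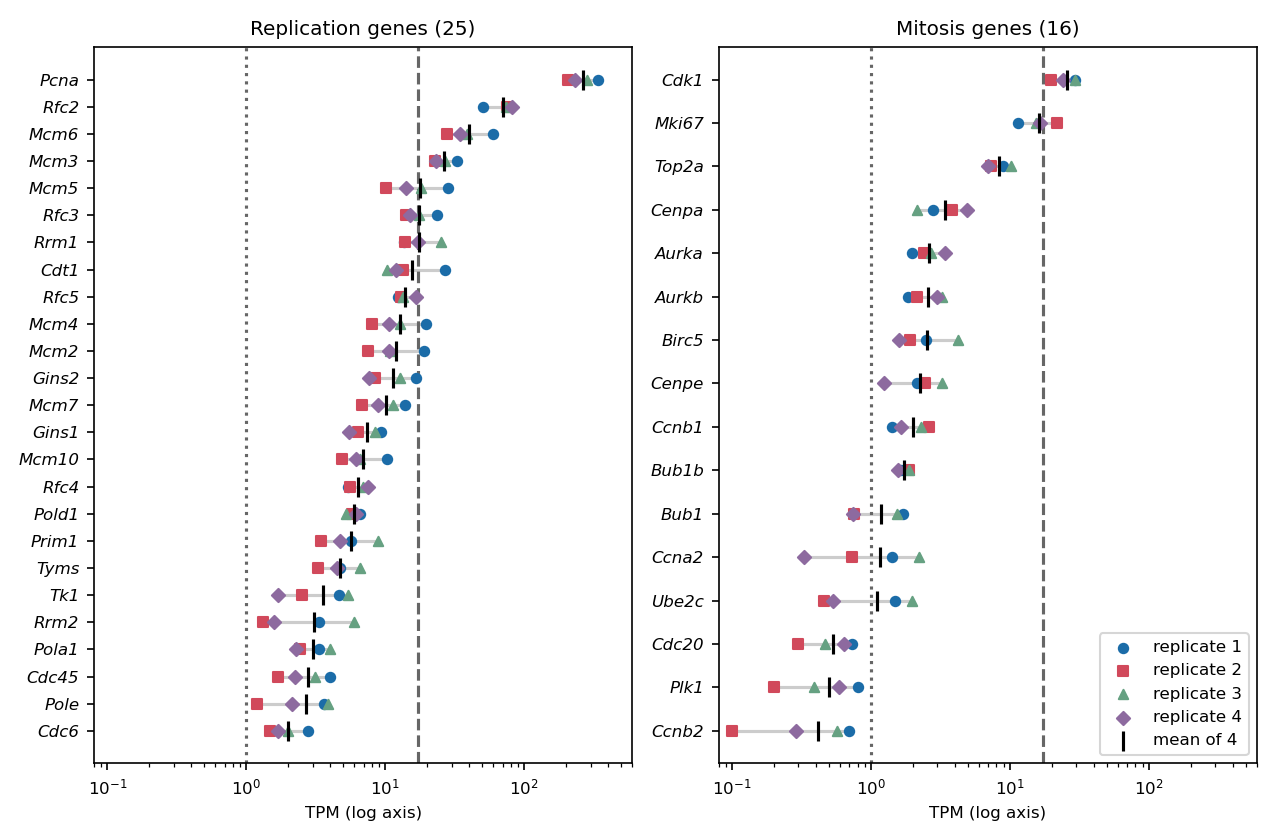
Level of each member in each library, in TPM on a log axis, with the 25 replication genes on the left and the 16 mitosis genes on the right; symbols are the 4 libraries, grey lines their range and black ticks their mean. The dotted line is 1 TPM and the dashed line is 17.2 TPM, the median of all genes at 1 TPM in each library; 6 mitosis genes reach below the dotted line and no replication gene does.

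The difference between the lists held in each library. The replication median minus the mitosis median, on log2(TPM + 0.1), was 2.73, 1.70, 2.14 and 2.22 in replicates 1, 2, 3 and 4, a mean of 2.20 ± 0.42 (SD, n = 4) or 4.58-fold. Replication was higher in 4 of 4 libraries, and no p is given because the lists were chosen with earlier results of these data known. The replication median itself was 3.63, 2.78, 3.37 and 2.96 and the mitosis median 0.91, 1.08, 1.24 and 0.74, both on log2(TPM + 0.1). Replicate 1 had the highest replication median and only the third highest mitosis median, so its difference was the widest of the 4. On this scale the median over the 11679 genes tested for variability below was also lowest in replicate 1. It was 3.63, 3.87, 3.83 and 3.75 in replicates 1 to 4. The rank of the mitosis median thus depends on the scaling. In counts scaled to library size, given below, replicate 1 was second highest for mitosis genes.

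**Figure D2:**
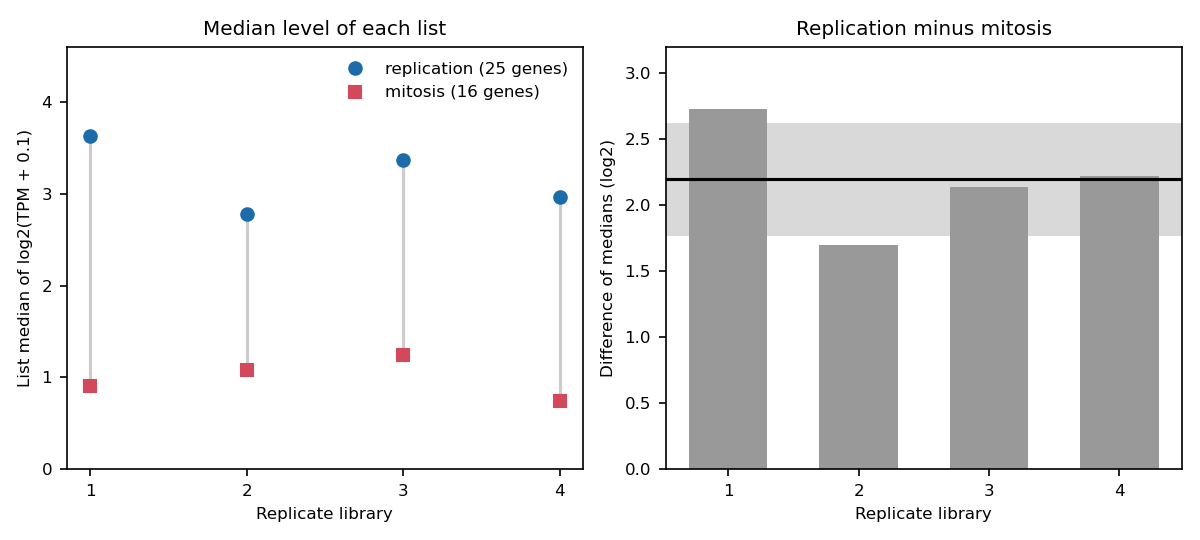
Left, the median of log2(TPM + 0.1) over 25 replication genes (circles) and 16 mitosis genes (squares) in each library; right, the difference of the medians (bars), with its mean (line) and 1 SD over 4 libraries (band). The difference runs between 1.70 and 2.73, and the circles lie above the squares in all 4 libraries.

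Among the genes of the MCM2-7 ring, Mcm6 was the most abundant in each library, with 59.7, 27.9, 38.6 and 34.5 TPM in replicates 1 to 4. Mcm3 had 32.6, 22.9, 26.9 and 23.3 TPM. Mcm5 had 28.5, 10.1, 18.2 and 14.0 TPM. The proteins assemble as a ring with 1 copy of each, but their RNAs were not level: the ratio of Mcm6 to Mcm7 lay between 3.41 and 4.30 in the 4 libraries. Mcm4 had 19.6, 8.09, 12.8 and 10.6 TPM. Mcm2 had 19.0, 7.49, 10.9 and 10.6 TPM. Mcm7 had 13.9, 6.77, 11.3 and 8.81 TPM, so the ranges of Mcm2, Mcm4 and Mcm7 overlapped. All 6 were highest in replicate 1 and lowest in replicate 2.

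The next 6 genes encode proteins that load or start the helicase. Cdt1, the loading factor that is destroyed when replication begins, had 26.9, 13.5, 10.3 and 12.0 TPM in replicates 1 to 4. Gins2, a GINS subunit, had 16.6, 8.40, 12.7 and 7.70 TPM. Mcm10, needed for helicase firing, had 10.3, 4.89, 6.57 and 6.11 TPM. Gins1 had 9.35, 6.36, 8.39 and 5.52 TPM. The loader Cdc6 and the helicase activator Cdc45 were far lower, at 1.49 to 2.77 and 1.68 to 4.03 TPM. All 6 were highest in replicate 1, as the MCM genes were. Gins2 shares 67.3% of its annotated exon bases with Gse1 on the other strand. Whether the counting used strand is not given in the sources used here, so the level of Gins2 is uncertain.

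The clamp gene Pcna was the most abundant member, with 338, 208, 281 and 231 TPM in replicates 1 to 4, rank 562 by mean TPM among the 10407 genes at 1 TPM in each library. It lay 5.65 to 7.45 times above Mcm6 in the same library. PCNA also serves in DNA repair, so its gene is not a marker of S phase alone. The processed pseudogene Pcna-ps2 was listed at 2.12 to 3.93 TPM, and reads could be split between it and Pcna.

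The clamp loader genes were uneven. Rfc2 had 50.5, 74.9, 74.0 and 82.1 TPM in replicates 1 to 4, so unlike Pcna it was lowest in replicate 1. Rfc3 was at 14.2 to 23.6 TPM, Rfc5 at 12.3 to 16.7 TPM and Rfc4 at 5.37 to 7.50 TPM. Rfc2 also shares 15.1% of its exon bases with Lat2 on the other strand, a gene at 196 TPM, and most of its signal lay on transcripts that do not encode the protein, as described below. Rfc4 shares 12.7% with Eif4a2 (152 TPM) and Rfc5 10.7% with Wsb2 (65.1 TPM).

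The 4 polymerase and primase members were all under 10 TPM in each library. Pold1, the catalytic subunit of the lagging-strand polymerase delta, had 5.22 to 6.58 TPM and the smallest coefficient of variation of the replication genes, 9.80%. Prim1, the primase that lays down RNA primers, had 5.63, 3.43, 8.80 and 4.76 TPM in replicates 1 to 4. Pola1, the catalytic subunit of polymerase alpha, was at 2.29 to 4.02 TPM and Pole, that of the leading-strand polymerase epsilon, at 1.19 to 3.89 TPM.

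Among the nucleotide enzymes the 2 subunits of ribonucleotide reductase differed widely. Rrm1, the large subunit, had 13.6, 13.8, 25.3 and 17.3 TPM in replicates 1 to 4. Rrm2, the small subunit whose protein is made in S phase, had 3.33, 1.31, 5.96 and 1.59 TPM. The ratio of Rrm1 to Rrm2 was therefore 4.09, 10.5, 4.24 and 10.9, low in replicates 1 and 3 and high in replicates 2 and 4. Tk1, the cytosolic thymidine kinase, had 4.68, 2.51, 5.37 and 1.69 TPM, high in the same pair of libraries as Rrm2. Tyms, thymidylate synthase, had 4.73, 3.27, 6.53 and 4.51 TPM. All 4 nucleotide enzymes were highest in replicate 3, where no MCM or helicase-loading gene was.

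Of the mitosis genes Cdk1, Mki67 and Top2a stood above the others. Cdk1, the kinase of mitotic entry, had 29.5, 19.8, 29.2 and 24.0 TPM in replicates 1 to 4. Mki67, which coats mitotic chromosomes and is the usual marker of dividing cells, had 11.4, 21.9, 15.5 and 16.4 TPM. Top2a, the topoisomerase that untangles sister DNA, had 8.97, 7.25, 10.2 and 7.01 TPM. Mki67 was highest in replicate 2 and lowest in replicate 1, the reverse of the MCM genes: its ratio to Mcm2 was 0.601, 2.92, 1.41 and 1.56. The edgeR adjusted p for variability of Mki67, described below, was 1.00.

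The other mitosis genes lay under 5 TPM in each library. The B cyclin Ccnb1 had 1.41, 2.63, 2.30 and 1.65 TPM in replicates 1 to 4, and Cdk1 exceeded it 7.54- to 20.9-fold in the same library. Ccnb2 had 0.70, 0.10, 0.57 and 0.29 TPM, resting on 16, 2, 21 and 9 counts. Cyclin A, Ccna2, had 1.41, 0.73, 2.21 and 0.33 TPM. Cdk1 was thus well above 1 TPM in all 4 libraries, and Ccna2 and Ccnb2 were under it in at least 2. Ccna2 shares 12.5% of its exon bases with Exosc9 (28.6 TPM) on the other strand. Ccnb2 and its pseudogene Ccnb2-ps, at 0.02 to 0.38 TPM, may share reads.

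Kinases and kinetochore genes were of the same order. The spindle kinase Aurka was at 1.98 to 3.40 TPM and Aurkb, the kinase of the chromosomal passenger complex, at 1.85 to 3.27 TPM. Their ratio stayed between 0.826 and 1.14. Birc5, or survivin, a partner of Aurora B, had 2.47, 1.90, 4.22 and 1.58 TPM in replicates 1 to 4. The checkpoint gene Bub1b was steady at 1.56 to 1.88 TPM, while the checkpoint kinase gene Bub1 had 1.70, 0.76, 1.53 and 0.74 TPM. Cenpa, the centromeric histone variant, was at 2.16 to 4.95 TPM and Cenpe, the kinetochore motor, at 1.24 to 3.24 TPM. Plk1 had 0.81, 0.20, 0.39 and 0.59 TPM. For destruction of the cyclins, Cdc20 had 0.73, 0.30, 0.47 and 0.64 TPM and Ube2c had 1.5, 0.46, 1.96 and 0.53 TPM. At depths of 5 to 40 counts a library, the order of the libraries in Cdc20 and Ube2c is not firm.

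The spread of each member over the 4 libraries was set against that of genes of like abundance with edgeR on the expected counts of all genes. The filter on low counts kept 37 members, all 25 replication genes and 12 of 16 mitosis genes; Ccnb2, Plk1, Cdc20 and Ube2c were not tested. Of 11679 genes 305 were called at an adjusted p of 0.05, a background of 2.61%. Of the members 5 were called, all replication genes: Mcm2, Mcm4, Mcm5, Cdt1 and Rrm2, that is 5 of 25, with 0 of 12 mitosis genes. At an unadjusted p under 0.05 there were 10 replication genes and 1 of 12 mitosis genes, Ccna2, beside 7.79% of all tested genes, so the mitosis count is near the background. DESeq2's dispersion trend called 4 replication and 0 mitosis genes, beside 2.97% of all tested genes.

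The largest departure was that of Mcm5, ENSMUSG00000005410.6 on the plus strand at chr8:75109569-75128439 of mm10, with an adjusted p of 0.00375 and a 3.33-fold range in CPM (counts scaled to library size). Mcm2, at chr6:88883474-88898780, had an adjusted p of 0.0411 and a 2.89-fold range. Mcm4, at chr16:15623897-15637400, had 0.0462 and a 2.76-fold range. In all 3 the count in replicate 1 was high and that in replicate 2 low. Mcm6 went the same way with a 2.48-fold range but missed the threshold, at an adjusted p of 0.0788. Cdt1, at chr8:122568015-122573554, was high in replicate 1 alone, with an adjusted p of 0.0142 and a 2.93-fold range. Rrm2, at chr12:24708241-24714146, had the widest range of the 5, 5.09-fold, with an adjusted p of 0.0169 and its highest count in replicate 3. Among mitosis genes Ccna2 had a 6.20-fold range, highest in replicate 3 and lowest in replicate 4, with an adjusted p of 0.0529 on 68, 31, 169 and 22 counts.

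These calls changed with the libraries used. Leaving out a library also lowered the calls over all genes, from 305 to 135, 212, 204 and 219 without replicates 1, 2, 3 and 4. A lost call therefore does not show that it rested on 1 library. Without replicate 1, the members called were Rrm2 and Ccna2, and without replicate 2 only Cdt1. Without replicate 3 they were Mcm2, Mcm4 and Mcm5, and without replicate 4 the same 3 with Cdt1. Over 7 alternatives the adjusted p of Mcm5 ran between 0.00188 and 0.847, and that of Rrm2 between 0.00613 and 0.299.

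Replicates 1 and 2 bounded most replication genes. In CPM, 16 of the 25 replication genes but 3 of the 12 tested mitosis genes were highest in replicate 1, beside 27% of all tested genes. Replicate 2 was lowest for 20 of the 25 replication genes and 3 of the 12 mitosis genes, against a background of 22.3%. Replicate 3 was highest for 7 replication and 6 mitosis genes, where the background was 28.2%, and replicate 4 was lowest for 3 replication and 5 mitosis genes, where it was 25.7%. As log2 deviations from each gene's mean over the 4 libraries, the replication medians were 0.54, -0.51, 0.12 and -0.19 in replicates 1 to 4 and the mitosis medians 0.19, -0.20, 0.33 and -0.26. The medians over all tested genes were -0.01, 0.00, 0.02 and 0.01. By role, grouped after the values were seen, the MCM2-7 genes deviated by a median of 0.79, -0.66, -0.01 and -0.18, the nucleotide enzymes by 0.43, -0.55, 0.52 and -0.43, and the clamp loader genes by -0.02, -0.21, 0.09 and 0.12.

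**Figure D3:**
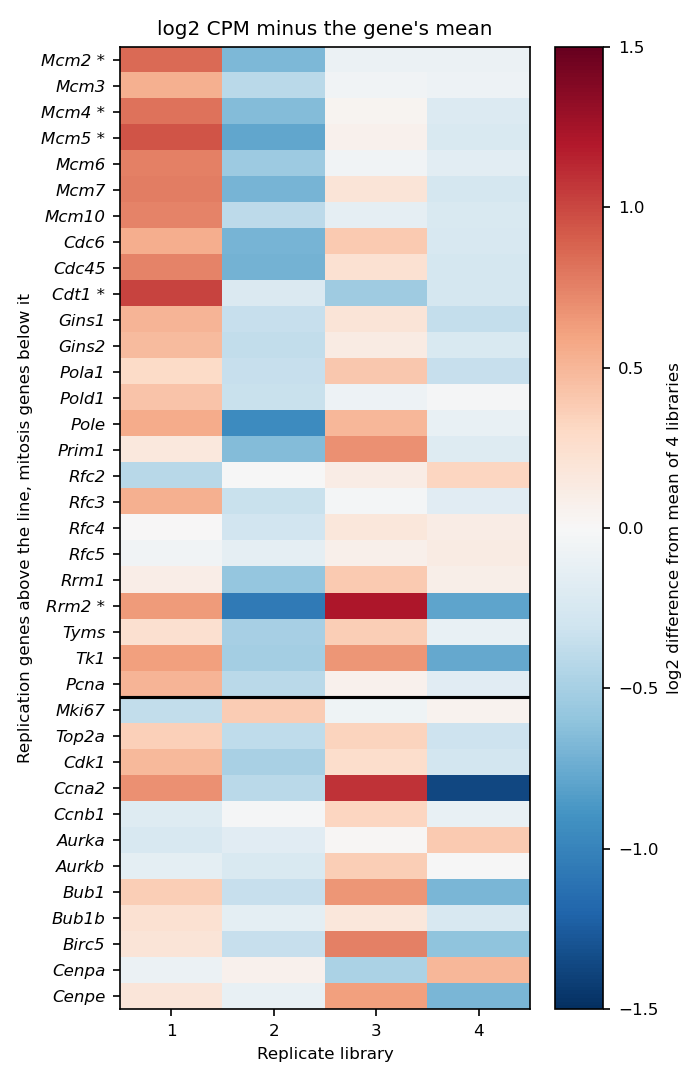
Difference of log2 CPM from the gene's own mean in each library (colour, red higher and blue lower) for the 25 replication genes, above the line, and the 12 tested mitosis genes, below it; stars mark an edgeR adjusted p of 0.05 or less. Red in replicate 1 and blue in replicate 2 run through most replication genes from Mcm2 to Gins2, and red in replicate 3 marks Rrm2, Tk1, Ccna2, Bub1, Birc5 and Cenpe.

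Some features of the libraries can be set beside these patterns. Replicate 1, high in MCM genes, also had the ribosomal RNA share of 7.14%. In replicates 2, 3 and 4 the shares were 2.73%, 1.29% and 2.69% and did not follow the order of the MCM genes. Markers of granulocyte precursors summed to 13.7, 0.96, 10.4 and 2.24 TPM in replicates 1 to 4 and so were high in replicates 1 and 3, as Rrm2 and Tk1 were. Ngp made up most of that sum in replicates 1 and 3, at 7.96 and 7.34 TPM, but not in replicates 2 and 4, at 0.40 and 0.56 TPM. The primary granule genes Mpo, Elane, Prtn3 and Ctsg stayed under 1 TPM in each library, and Elane, Ctsg and Ms4a3 were listed at 0 in replicate 2. Erythroid markers summed to 1.39, 0.09, 2.56 and 0.72 TPM, fibroblast markers to 1.11, 0.15, 3.50 and 0.63 TPM and lymphoid markers to 3.2, 2.82, 7.29 and 4.86 TPM. Of the lymphoid sums Cd79b made up 1.58, 2.77, 6.36 and 3.95 TPM. The erythroid markers Hba-a2 and Slc4a1 were listed at 0 in all 4 libraries. The progenitor markers without Cd48 summed to 1.82 to 2.00 TPM. The part of these shares and cells in the differences between libraries was not tested.

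Replicates 3 and 4 came from 4 read files each, and replicates 1 and 2 from 6 each, per the deposited records. Of 12667 genes, 0 (0%) differed between these pairs by edgeR's quasi-likelihood test at an adjusted p of 0.05, with 897 at an unadjusted p under 0.05 and 103 called by DESeq2. None of the 41 members was called by either tool, and none had an unadjusted p under 0.05 by edgeR. The log2 fold changes, replicates 3 and 4 over replicates 1 and 2, ran between -0.92 (SE 0.40) for Cdt1 and 0.53 (SE 0.79) for Rrm2, and their medians were -0.15 for replication and 0.10 for mitosis genes, beside 0.03 for all genes tested for variability. With 2 libraries a side, this comparison does not show that the members were alike.

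A second quantification of the same reads gave lower levels for members and for genes in general alike. On log2(TPM + 0.1), second minus first, the median was -0.34 over replication genes and -0.30 over mitosis genes, and -0.31 over all genes tested for variability. Of 12299 genes compared by limma, 1340 (10.9%) were called at an adjusted p of 0.05 and 1 log2 unit or more, and of 38 members compared none was. A gene was compared if its mean was 1 TPM or more in either quantification. Among the genes also tested for variability 331 of 10833 were called, and 0 of 38 members is near that background. Mcm3 was lowest relative to the first quantification, at -0.71 ± 0.24 (SD, n = 4), and Tk1 the highest at 0.01 ± 0.27. The members at 1 TPM throughout were 33 in the second quantification and 35 in the first, since Pole and Rrm2 dropped under the line.

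Transcript tables split each gene by annotated transcript type. The share of a member's TPM on protein-coding transcripts was 90% or more in 14 of 25 replication and 8 of 16 mitosis genes, beside 71.0% of 9696 protein-coding genes at 1 TPM in each library. It was under 50% in Rfc2, Tyms and Cenpa, beside 5.68% of those genes. In Rfc2 only 16.7% ± 1.75 (SD, n = 4) was protein coding: the retained-intron transcripts Rfc2-204 and Rfc2-205 averaged 34.9 and 19.3 TPM, and the coding Rfc2-201 averaged 11.9 TPM. Counted by its coding transcripts alone, Rfc2 thus stood near the other clamp loader genes, whose coding transcripts averaged 16.7, 5.81 and 10.8 TPM for Rfc3, Rfc4 and Rfc5. Tyms was 24.5% ± 12.0 protein coding, with most on Tyms-205, which is annotated as a target of nonsense-mediated decay. Cenpa was 41.9% ± 12.4, with Cenpa-202 of the same type. Cdk1 was 53.2% ± 1.29, with the retained-intron Cdk1-204 at 11.9 TPM beside the coding Cdk1-202 at 11.7 TPM. Of the mitosis genes Mki67, Ccnb1, Ccnb2, Aurka, Plk1, Birc5 and Ube2c were 100% protein coding. The second quantification gave 11.7% for Rfc2, 38.4% for Tyms, 35.3% for Cenpa and 58.5% for Cdk1. The difference of the list medians with protein-coding transcripts only was 2.22 ± 0.26.

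**Figure D4:**
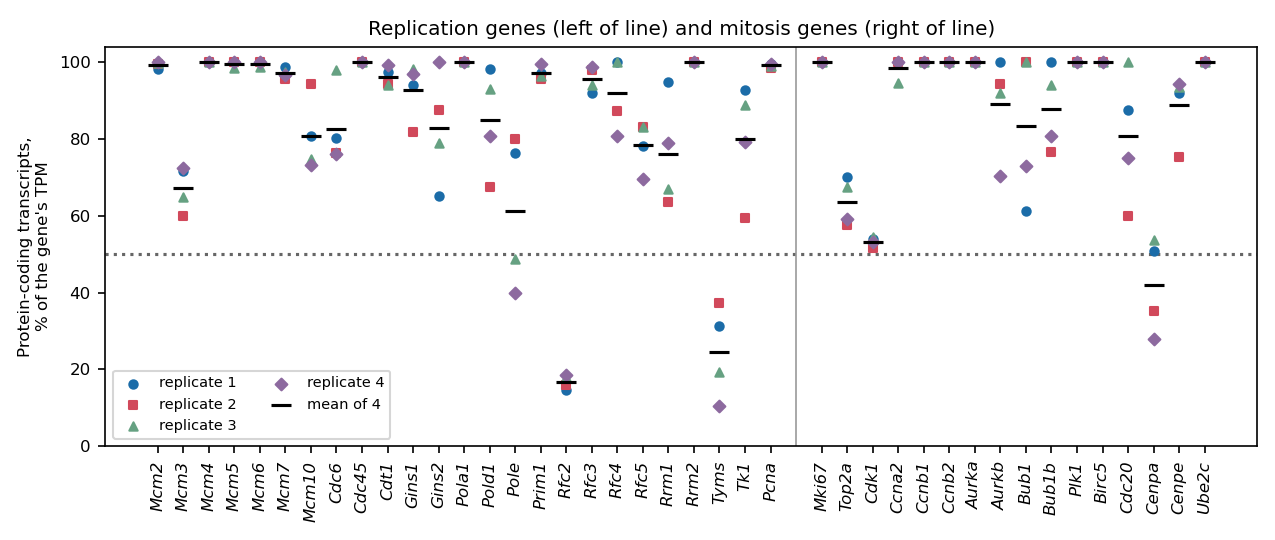
Share of each member's TPM on protein-coding transcripts, in percent, in 4 libraries (symbols) with their mean (black dash), for replication genes left of the line and mitosis genes right of it; the dotted line is 50%. Rfc2 at 16.7%, Tyms at 24.5% and Cenpa at 41.9% are the members with a mean below it, and Mcm2, Mcm4, Mcm5 and Mcm6 lie above 90% in each library.

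RefSeq's table for GRCm38.p6 (the primary assembly of mm10) held an entry for 34 of the 41 members; Mcm4, Gins1, Gins2, Pole, Rfc2, Ccna2 and Aurkb were not matched. In the 250 bases before the start, both strands were searched for 4 forms of E2F site (TTTCCCGC, TTTCGCGC, TTTGCCGC and TTTGGCGC), for the cell cycle homology region (TTTGAA or TTCGAA) and for CCAAT, and matches may overlap. An E2F form was found in 6 of 20 replication genes (Mcm5, Mcm6, Mcm7, Cdc6, Pola1 and Rfc3) and in 1 of 14 mitosis genes, Cdk1, beside 1.86% of 32851 promoters. The cell cycle homology letters were in 4 of 20 replication genes and 7 of 14 mitosis genes, beside 17.1% of promoters. CCAAT was in 13 of 20 and 13 of 14, beside 33.8%. Every member that held the homology letters held CCAAT too, 4 of 20 and 7 of 14, beside 6.02% of all promoters. Among the other replication and other mitosis genes with an entry, E2F forms were in 8 of 35 and 2 of 38, and the homology letters in 5 of 35 and 12 of 38. CCAAT was in 17 of 35 and 25 of 38 of them. The homology letters and CCAAT together were in 2 of 35 other replication genes (5.71%), near the 6.02% of all promoters, and in 11 of 38 other mitosis genes. A listed gene was counted if any of its entries held the letters, whereas the shares of promoters are over single entries. A match of letters is a description and shows no binding.

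The promoters of Mcm5 (chr8:75109339-75109508, plus strand), Mcm6 (chr1:128359706-128359875, minus strand) and Rrm2 (chr12:24708084-24708240, plus strand) are shown because these genes had the smallest adjusted p of all members, the highest level in the MCM ring and the widest range of the 5 called. Those of Cdk1 (chr10:69352939-69353082, minus strand), Ccnb2 (chr9:70421555-70421724, minus strand) and Cdc20 (chr4:118437353-118437513, minus strand) are shown because they were the mitosis gene with the highest mean TPM over all transcripts and a pair that stayed under 1 TPM. Each begins 170 bases before the RefSeq start and ends at that start, or earlier where GENCODE begins the gene upstream. They run 5′ to 3′ on the gene's strand, and capitals mark every match of the 3 kinds in the bases shown, CCAAT also as ATTGG. The bases left out held 2 further matches: TTTGAA 15 bases before the start in Cdk1 and CCAAT 8 bases before it in Cdc20. Mcm5 and Mcm6 each held overlapping E2F forms, 153 and 110 bases before the start, and CCAAT boxes downstream of them. Rrm2 held CCAAT alone, 50 bases before the start, and Ccnb2 held TTTGAA and 3 CCAAT boxes.

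Mcm5: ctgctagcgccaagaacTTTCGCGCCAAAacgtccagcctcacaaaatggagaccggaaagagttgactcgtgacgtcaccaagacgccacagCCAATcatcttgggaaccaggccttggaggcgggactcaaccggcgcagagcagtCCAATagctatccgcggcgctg
Mcm6: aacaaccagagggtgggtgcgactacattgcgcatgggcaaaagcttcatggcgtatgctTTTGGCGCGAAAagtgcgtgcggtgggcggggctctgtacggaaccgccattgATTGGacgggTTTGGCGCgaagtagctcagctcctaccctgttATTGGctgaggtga
Rrm2: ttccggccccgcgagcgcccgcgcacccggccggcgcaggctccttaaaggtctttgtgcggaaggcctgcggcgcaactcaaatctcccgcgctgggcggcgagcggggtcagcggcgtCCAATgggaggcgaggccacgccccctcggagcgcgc
Cdk1: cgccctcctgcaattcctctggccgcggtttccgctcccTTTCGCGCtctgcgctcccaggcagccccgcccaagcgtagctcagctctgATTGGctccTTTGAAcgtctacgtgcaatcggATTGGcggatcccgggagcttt
Ccnb2: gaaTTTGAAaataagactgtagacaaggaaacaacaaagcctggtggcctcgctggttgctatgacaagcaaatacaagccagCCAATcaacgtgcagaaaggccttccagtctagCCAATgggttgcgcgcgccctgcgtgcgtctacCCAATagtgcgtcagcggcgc
Cdc20: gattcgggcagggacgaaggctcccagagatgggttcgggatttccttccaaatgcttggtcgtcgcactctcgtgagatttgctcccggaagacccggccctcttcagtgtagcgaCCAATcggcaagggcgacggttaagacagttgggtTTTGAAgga

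Other genes of the same processes gave a like contrast in levels. Of 42 further replication genes 36 reached 1 TPM in each library, and of 46 further mitosis genes 24 did. Their list medians of log2(TPM + 0.1) averaged 3.38 ± 0.18 for replication and 0.63 ± 0.29 for mitosis (SD, n = 4). The most abundant replication genes there were Orc4 of the origin recognition complex, Rpa1 of the single-strand binding protein and the maintenance methyltransferase Dnmt1, at means of 39.3, 37.0 and 32.7 TPM. Among the mitosis genes securin, Pttg1, was far above all others with 132 to 152 TPM, followed by Bub3 at 31.6 and Incenp at 25.5 TPM on average. In CPM 28 of the 42 replication genes were highest in replicate 1, and 26 of the 42 tested mitosis genes were highest in replicate 3, against backgrounds of 27% and 28.2%. The edgeR test called 1 of 42 genes in each list, near the background of 2.61%. The DNA ligase Lig1 had 12.4, 5.80, 13.2 and 5.93 TPM in replicates 1 to 4, with an adjusted p of 0.0365. Tpx2, a spindle assembly factor, had 27.9, 32.5, 11.5 and 16.4 TPM, with an adjusted p of 0.00575, low in replicate 3 where most mitosis genes were high.

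Genes that permit or oppose entry into S phase had list medians of log2(TPM + 0.1) of 3.74 ± 0.34 for G1 cyclins and kinases and 5.08 ± 0.18 for CDK inhibitors and antiproliferative genes, beside 2.37 ± 0.31 for the 41 members (SD, n = 4). The second of these 2 lists is mixed: its Cdkn genes other than Cdkn1a had means of 0.153 to 13.6 TPM. Cdkn1a averaged 462 TPM, and the genes of that list that are not CDK inhibitors averaged 34.5 to 449 TPM. All 8 G1 cyclins and kinases reached 1 TPM in each library, and 2 were called variable, beside 2.61% of all tested genes. Cyclin D1, Ccnd1, had 150, 32.9, 37.1 and 36.4 TPM in replicates 1 to 4, with an edgeR adjusted p of 3.23e-10. Ccnd2 had 18.3, 10.2, 4.26 and 8.05 TPM, with an adjusted p of 3.5e-05. Both were highest in replicate 1, the library in which the MCM genes were highest. Ccnd3 was at 27.8 to 40.6 TPM and the kinase genes Cdk4, Cdk6 and Cdk2 at means of 54.1, 12.9 and 12.5 TPM. The E cyclins, which act with CDK2 at the start of S phase, were low, Ccne1 at 2.21 to 3.91 TPM and Ccne2 at 1.13 to 2.93 TPM, and both were highest in replicate 3.

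Of 13 CDK inhibitors and antiproliferative genes 11 reached 1 TPM in each library. Cdkn1a, which encodes p21 and binds both cyclin-dependent kinases and PCNA, had 393, 383, 349 and 724 TPM in replicates 1 to 4, and its ratio to Cdk1 was 13.3, 19.3, 12.0 and 30.2. Its adjusted p for variability was 0.469. Gadd45b averaged 449 TPM. Mdm2, the ubiquitin ligase that acts against p53, averaged 157 TPM and is counted in this list though it is not itself antiproliferative. Trp53 was at 30.8 to 39.3 TPM, Btg1 at 58.0 to 110 TPM and Btg2 at 70.7 to 154 TPM. The genes called variable were 2 of 11 tested, Cdkn1c, which encodes p57, and Gadd45a, beside 2.61% of all tested genes. Cdkn1c had 2.02, 5.56, 1.56 and 12.1 TPM, with an adjusted p of 0.000749, and Gadd45a had 76.7, 87.2, 29.9 and 65.4 TPM, with an adjusted p of 0.0118. Replicate 4 was highest in CPM for 7 of the 11 tested, among them Cdkn1a, Cdkn1b, Cdkn1c and Cdkn2c, beside 26% of all tested genes. Cdkn1b, or p27, had 6.75, 14.5, 12.8 and 20.4 TPM, Cdkn2c 3.51 to 9.17 TPM and Cdkn2d 9.91 to 13.5 TPM, whereas Cdkn2a and Cdkn2b stayed under 1 TPM in each library.

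**Figure D5:**
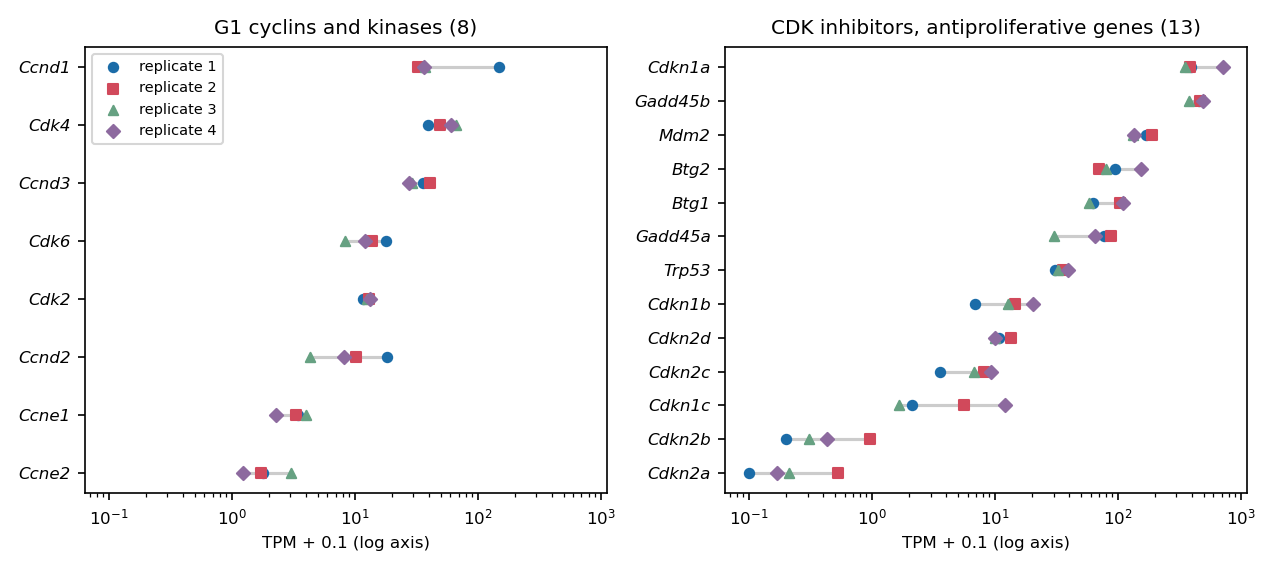
Level in each library, as TPM + 0.1 on a log axis, of 8 G1 cyclins and kinases (left) and 13 CDK inhibitors and antiproliferative genes (right); symbols are the 4 libraries and grey lines their range. Ccnd1 stands out in replicate 1 at 150 TPM, Cdkn1a in replicate 4 at 724 TPM, and Cdkn2a and Cdkn2b lie lowest.

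Of 21 transcriptional regulators of the cell cycle (E2F, RB and MuvB families, Myc, Foxm1 and Mybl2) 17 reached 1 TPM in each library and 0 of 20 tested were called by edgeR or by DESeq2, and 0 had an unadjusted p under 0.05 by edgeR. With 2.61%, 2.97% and 7.79% of all tested genes past these limits, such counts are close to the background. The most abundant were Rbbp4, Lin37 and Rb1, at means of 41.4, 27.6 and 27.3 TPM. Of 8 further genes of nucleotide supply and removal 0 were called by either tool, 0 had an unadjusted p under 0.05 by edgeR against the same backgrounds, and 7 reached 1 TPM in each library. Samhd1, the hydrolase that destroys deoxynucleotides in resting myeloid cells, had 989 to 1220 TPM and exceeded Rrm2 in the same library 204- to 898-fold, followed by the kinases Dck at 99.8 and Tk2 at 33.1 TPM on average.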

How the data were processed

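The authors deposited, for each of 4 polyA RNA-seq libraries, a gene table and 2 transcript tables on mm10 with the annotation GENCODE M21, per the deposited records, which name no program. The gene table and the first transcript table derive from transcriptome alignments, and the other transcript table, called the second quantification, from the read files with an index. Per the file headers they hold an expected count, not normalised, and TPM as the authors scaled it. Of 81881 gene entries 55536 are Ensembl genes and were used here, and expected counts came to 23167140 to 41453162 a library. A count of 0 allows up to 3 counts, or 0.0724 to 0.129 CPM, and such floors cover counting error only.

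The members and lists were chosen with earlier results of these data known. Of the members all are named; of other lists, those called variable, the 3 with the highest mean TPM, and G1 cyclins, kinases and CDK inhibitors. Levels are means ± SD over the 4 libraries, which the labels call biological replicates; since 1 donor entry is shared, p-values measure only the spread between these samples. Counts were rounded and analysed by edgeR 4.0.16 in R 4.3.3. Genes passing filterByExpr were scaled by TMM and given a dispersion trend from an intercept-only design. Each gene's deviance from it was referred to chi-square on 3 degrees of freedom, with Benjamini-Hochberg adjustment over all tested genes at 0.05 (common biological coefficient of variation 22.4%). The split by read files used the quasi-likelihood test, DESeq2 1.42.0 was the alternative, and limma 3.58.1 compared quantifications on log2(TPM + 0.1). Tests were tested on simulated data. Tables and plots used Python 3.11.15, numpy 2.4.6, pandas 2.3.3 and matplotlib 3.10.9.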

Additional observations from a re-analysis of the deposited data

Results flagged for a closer look

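Of 66 sets of 4 library values examined (the 41 members, the list medians and their difference, and cell cycle regulators), 2 had a library far from the other 3. Chance gives about 1 in 20 sets, or 3.3 of the 66, so a count of 2 is no more than chance would give. That count does not judge a single set. In edgeR's test of variability Ccnd1 had an adjusted p of 3.23e-10 and Cdkn1a one of 0.469. Ccnd1, cyclin D1, had 150 TPM in replicate 1 and 32.9, 37.1 and 36.4 TPM in replicates 2, 3 and 4, so that the gap took 0.964 of the whole range. Cdkn1a, p21, had 724 TPM in replicate 4 and 393, 383 and 349 TPM in replicates 1, 2 and 3, a gap of 0.883 of the range. Both gaps passed Dixon's critical value for 4 samples. No member was flagged.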

How the results depend on the processing

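No paired comparison of libraries was possible because the 4 libraries form 1 group and share no replicate number. The comparison of the quantifications was paired within each library. The count of members at 1 TPM in each library was 35 without any 1 library and 33 in the second quantification. The difference of list medians stayed positive and within 1 SD of 2.20 under all 9 alternatives other than leaving out a library: it ran between 1.79 with a pseudocount of 1 and 2.29 without Mki67 and Top2a, and protein-coding transcripts only (2.22) was chosen after seeing the data. Leaving out each library gave 2.02 to 2.36. The 5 members called variable became 3 with no filter on low counts (Cdt1, Mcm5 and Rrm2), where 21041 genes were tested, and 1 to 4 without each library, and the cause was not tested. Over all genes, 305 were called and 135 without replicate 1. For the read-file split 0 genes were called, against 103 by DESeq2, 35 with no filter, 13 without replicate 2 and 2 without replicate 3, in each case with 0 members. Between quantifications 1340 genes were called and 2145 with no filter, with 0 members. Low counts limit the mitosis genes below 1 TPM most: Ccnb2 rested on as few as 2 counts.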
